A study of Linum usitatissimum with 8 samples.

Results

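Among genes measured by RNA sequencing in developing flax seed, 123 had levels at DAP5 far above those in any later library. They are the 123 of 38306 genes with a Lus ID, in a table of 40518 rows, whose CPM (the count of a gene divided by the total of its library and multiplied by 1000000) was 20 or higher in each DAP5 library and whose lower DAP5 value was at least 10 times the highest of the 6 later libraries. The members were therefore chosen by their measured levels in all 8 libraries. Their DAP5 level and its distance from later stages are descriptions, with no test. CPM does not take gene length into account.

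The seeds were of flax (Linum usitatissimum), cultivar Heiya No.14, and the 4 stages carry the labels DAP5, DAP10, DAP20 and DAP30. Each stage has 2 libraries. The labels give neither a treatment nor a mutant, do not spell out the stage names, and name the tissue only as seed. A whole seed pools embryo, endosperm and seed coat, so a fall in level cannot be told apart between fewer cells of a type and less RNA per cell. The table pairs no gene ID with a name and no annotation was used, so the seed label could not be checked against marker genes and no role is given for any member.

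As background, a flax seed starts as an ovule whose integuments become the seed coat around a small embryo and a growing endosperm. Cell division, patterning and the laying down of coat layers come first, and the embryo later fills with oil rich in linolenic acid and with storage protein while the coat epidermis stores mucilage. Genes of the first phase are commonly shut down when filling begins, so a sharp early window is a familiar class in seed time courses.

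Library totals ran from 12951493 to 27691831 counts and were highest at DAP5. Every member had at least 538 counts in each DAP5 library, and 2 CPM in the smallest library equals 25.9 counts. Sampling noise did not account for the differences between replicates at any stage (chi-square over degrees of freedom 18.5 or higher), so no libraries were merged. The labels do not tie replicates to separate plants. P-values therefore reflect the spread between these libraries alone, and that spread may be technical.

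Together the members took 3.28% and 2.59% of all counts in DAP5 replicates 1 and 2. Their share was 0.0589% and 0.105% in the DAP10 libraries, 0.0119% and 0.00759% in the DAP20 libraries, and 0.00896% and 0.0091% in the DAP30 libraries. The 12 members with the highest CPM supplied 60.1% of the members' DAP5 counts. Mean DAP5 levels ran from 22.5 to 2963 CPM with a median of 77.6 CPM. Of the 123 members, 7 averaged 1000 CPM or more, 4 lay between 500 and 1000, 38 between 100 and 500, 37 between 50 and 100, and 37 under 50.

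**Figure D1:**
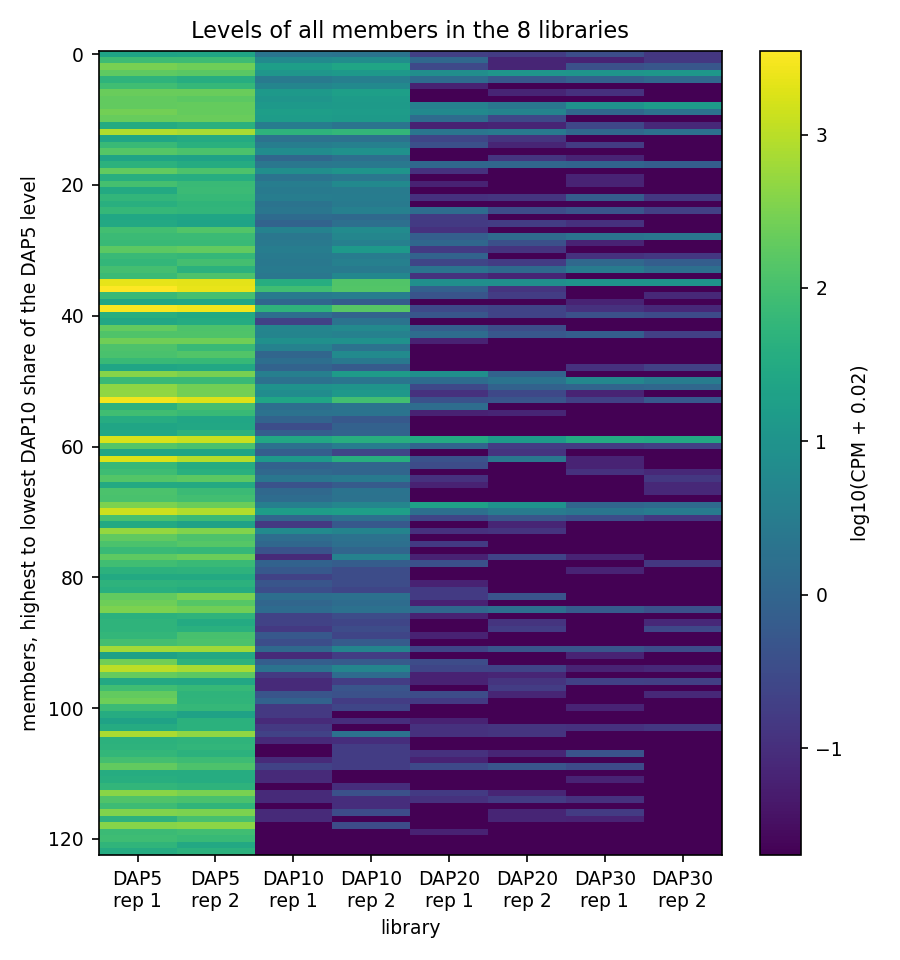
Levels of all 123 members (rows) in the 8 libraries (columns), as log10 of CPM plus 0.02, ordered from the highest to the lowest DAP10 level as a share of the DAP5 level. Both DAP5 columns are bright in every row, whereas the DAP10 columns grade from the upper to the lower rows and most DAP20 and DAP30 cells are near 0.

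The margin that defined the members was wide for many of them. On library totals, smaller margins were common. Of 10569 Lus genes at 20 CPM or more in each DAP5 library, 5380 had the lower DAP5 library above all later libraries. The margin was at least 2 times for 1256 of them, 5 times for 254 and 10 times for 123, or 1.16%. Among the 123, the margin was under 20 times for 45, between 20 and 100 times for 38 and 100 times or more, or with no later count at all, for 40. The margin had a median of 30.6 over the members with a later count. The same rule turned to the other stages found 33 genes at DAP10, 31 at DAP20 and 0 at DAP30. Scaling by trimmed mean of M-values gave factors of 1.39 and 1.45 for the DAP5 libraries. The factors for the DAP20 and DAP30 libraries lay between 0.757 and 0.839. Such scaling lowers DAP5 levels relative to later ones, so the counts at small margins and by stage hold for library totals only.

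**Figure D2:**
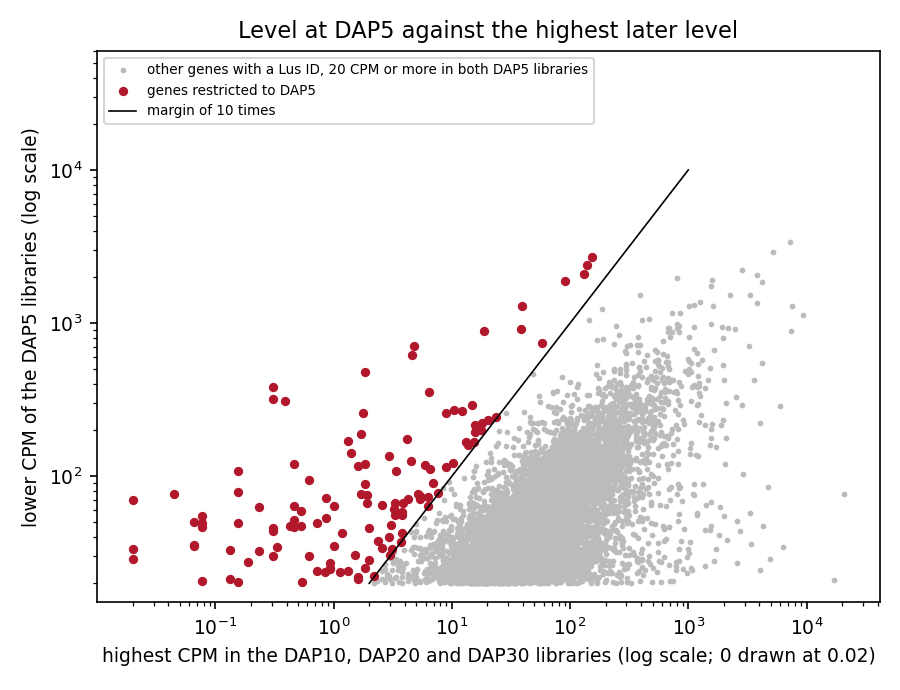
Lower CPM of the DAP5 libraries (vertical, log scale) against the highest CPM of the 6 later libraries (horizontal, log scale, 0 drawn at 0.02), with the 123 members in red and the other Lus genes at 20 CPM or more at DAP5 in grey. The members lie on or left of the line of a 10-fold margin and spread leftward over several orders of magnitude, down to the 3 with no later count.

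Just inside the margin lay Lus10025628.g.BGIv1.0 at 10.05 times, Lus10005614.g.BGIv1.0 at 10.17 times and Lus10037093.g.BGIv1.0 at 10.22 times. Just outside lay Lus10024415.g.BGIv1.0 at 9.90 times, Lus10041715.g.BGIv1.0 at 9.84 times and Lus10001905.g.BGIv1.0 at 9.84 times. Lus10041715.g.BGIv1.0 had 144 and 83.6 CPM at DAP5, 5.94 and 8.49 CPM at DAP10 and no count later, so its course resembled that of members and only the size of the margin kept it out.

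The member with the most counts was Lus10039701.g.BGIv1.0, at 3515 and 2409.7 CPM in the DAP5 libraries. It had 88.1 and 139 CPM at DAP10, 0.809 and 0.103 CPM at DAP20, and no count in either DAP30 library. Lus10002964.g.BGIv1.0 had 3060.1 and 2681 CPM at DAP5, 51.5 and 153 CPM at DAP10, 0.270 and 0.205 CPM at DAP20, and 0.0943 and 0.0603 CPM at DAP30. Both genes thus kept under 4% of their DAP5 level at DAP10. At DAP20 their counts in replicates 1 and 2 were 18 and 2 for Lus10039701.g.BGIv1.0, and 6 and 4 for Lus10002964.g.BGIv1.0. Lus10017674.g.BGIv1.0 followed the same course at 2699 and 1871 CPM at DAP5, 23.7 and 90.1 CPM at DAP10, and at most 0.543 CPM in any later library.

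Other abundant members did not decline to zero. Lus10042555.g.BGIv1.0 had 2215 and 2106 CPM at DAP5, 36.2 and 131 CPM at DAP10, 8.004 and 8.051 CPM at DAP20, and 9.71 and 10.1 CPM at DAP30. Lus10033784.g.BGIv1.0 had 1716 and 1299 CPM at DAP5, 27.6 and 38.9 CPM at DAP10, 32.8 and 14.7 CPM at DAP20, and 32.0 and 29.8 CPM at DAP30. The 6 later libraries of Lus10033784.g.BGIv1.0 overlapped between stages, from 14.7 to 38.9 CPM, so no decline after DAP10 could be told from their spread. Lus10035234.g.BGIv1.0, at 1397 and 888 CPM at DAP5, had 17.0 and 18.5 CPM at DAP10 and between 1.62 and 3.08 CPM in each library of DAP20 and DAP30.

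Steeper cases held almost nothing by DAP10. Lus10035168.g.BGIv1.0 had 1001 and 713 CPM at DAP5, 1.98 and 4.79 CPM at DAP10 and at most 0.225 CPM later. Lus10002618.g.BGIv1.0 had 768 and 477 CPM at DAP5, 0.198 and 1.85 CPM at DAP10, 0.0899 and 0.103 CPM at DAP20 and no count at DAP30. Lus10027353.g.BGIv1.0 had 674 and 621 CPM at DAP5, 1.19 and 4.63 CPM at DAP10 and between 0.225 and 0.472 CPM in the libraries of DAP20 and DAP30. These 3 genes had DAP10 means of 0.395%, 0.165% and 0.45% of their DAP5 means. At the other end of the 12 most counted members, Lus10022374.g.BGIv1.0 kept 6.66%, with 881 and 739 CPM at DAP5 and 49.7 and 58.1 CPM at DAP10.

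**Figure D3:**
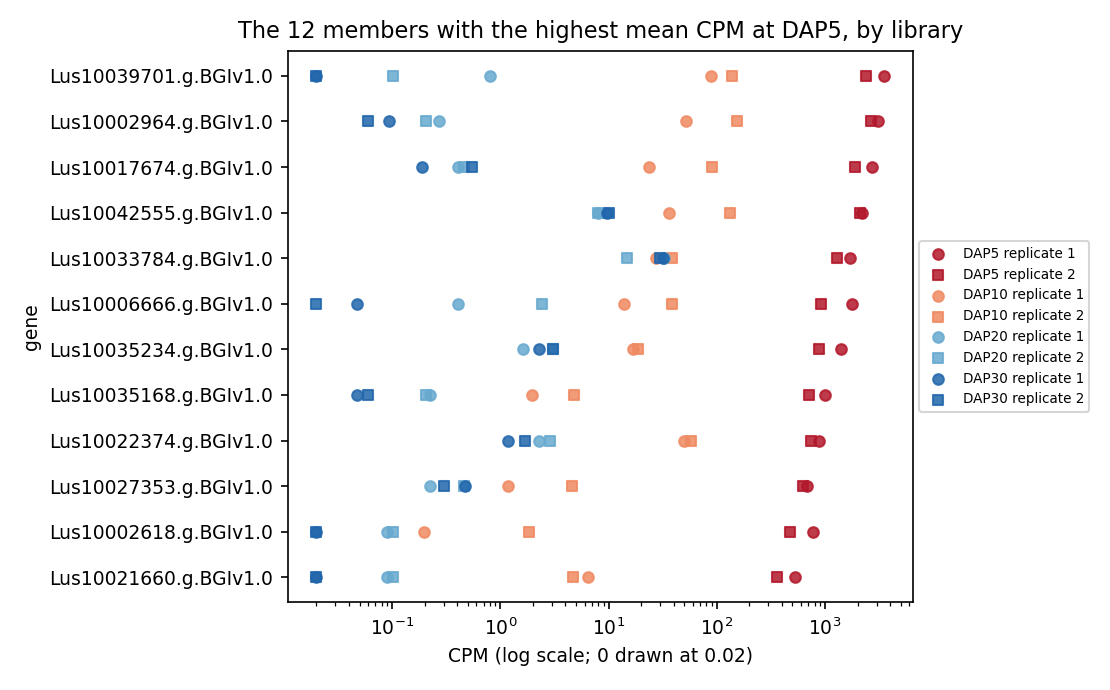
CPM (log scale, 0 drawn at 0.02) of the 12 members with the highest mean DAP5 CPM in each library, coloured by stage, with circles for replicate 1 and squares for replicate 2. The DAP5 points of all 12 genes lie between 356 and 3515 CPM, and 11 of the 12 have a higher DAP10 level in replicate 2 than in replicate 1.

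Per length the order changed. On the scale of RPKM, which is CPM per 1000 bases of the gene length in the table, the highest mean DAP5 level was that of Lus10006666.g.BGIv1.0 at 2104 RPKM, a gene of 636 bases that ranked behind 5 others by CPM. Lus10017674.g.BGIv1.0 came next at 1955 RPKM, then Lus10039701.g.BGIv1.0 at 1267 RPKM, Lus10002964.g.BGIv1.0 at 1056 RPKM, Lus10002618.g.BGIv1.0 at 949 RPKM and Lus10042555.g.BGIv1.0 at 738 RPKM. The replicates of Lus10006666.g.BGIv1.0 were at 1756 and 920.1 CPM, so its lead over Lus10017674.g.BGIv1.0 was within their spread. The members had a median of 70.4 RPKM at DAP5, against 19.8 RPKM for all 10569 Lus genes at 20 CPM or more. The sources used here do not say how the length was defined, so RPKM values hold only as far as it matches the sequenced transcripts.

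The members included many short genes, a property the rule did not use, although a minimum on CPM favours long genes. Of the 123 members, 22 (17.9%) were under 700 bases, compared with 1.5% of 1133 Lus genes that were higher at DAP5 by 2 to 10 times and 1.68% of 9313 with a smaller margin, all at 20 CPM or more in each DAP5 library. The median length was 1515 bases in the members, 2282 bases in the genes with a margin of 2 to 10 times, and 2438 bases in those with a smaller margin. Over all 38306 Lus genes, expressed or not, 20.1% were under 700 bases, a share closer to that of the members than those of the other genes well expressed at DAP5. The median DAP10 level was 0.457% of the DAP5 level in the 22 members under 700 bases and 2.49% in the 101 longer ones. These shares are descriptions over genes, and no test was made.

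Genes silent after DAP5 were few and of moderate level. Lus10024035.g.BGIv1.0, at 83.8 and 69.5 CPM at DAP5, Lus10029104.g.BGIv1.0, at 54.8 and 28.8 CPM, and Lus10011068.g.BGIv1.0, at 33.5 and 44.6 CPM, had no count in any of the 6 later libraries. A count of 0 in both libraries of a stage allows up to 0.107 CPM at DAP10, 0.0719 CPM at DAP20 and 0.0794 CPM at DAP30, taking 3 counts over the stage and counting error only. Lus10030912.g.BGIv1.0, at 76.6 and 86.1 CPM at DAP5, had a single later count, in DAP20 replicate 1, and the widest margin of the members with any later count, 1704 times. Among genes with more reads, Lus10041849.g.BGIv1.0, a gene of 552 bases singled out after its values were seen, had 384 and 423 CPM at DAP5 and 4 counts later, all in DAP10 replicate 2.

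For most members the residue after DAP5 sat at DAP10 and then faded. DAP10 had the highest mean of the later stages for 112 of the 120 members with a later count. The DAP10 mean had a median of 1.62 CPM over the 123 members, the DAP20 mean 0.0675 CPM and the DAP30 mean 0.0236 CPM. No count was found in either library of the stage for 4 members at DAP10, 35 at DAP20 and 59 at DAP30. A level of 1 CPM or more was held by 74 members at DAP10, 15 at DAP20 and 12 at DAP30. Depth was not equal, since the DAP10 libraries were the smallest, which makes a count of 0 easier to reach at DAP10 than at DAP20 or DAP30.

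The rule treated the 6 later libraries alike, so differences among DAP10, DAP20 and DAP30 could be tested. It did cap each member's highest later level. The test was edgeR's quasi-likelihood test on all 28749 genes that passed a filter on low counts, with all 8 libraries in 1 fit and trimmed mean of M-values (TMM) scaling, and a Benjamini-Hochberg false discovery rate (FDR) below 0.05 was called. All 123 members passed the filter, 46 of them only through their DAP5 libraries. These 3 comparisons share stages with each other, so their counts are not separate evidence.

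From DAP10 to DAP20 most members fell further. At DAP20 76 of the 123 members were lower than at DAP10, 1 was higher and 46 were not called. Of all genes tested, 53.3% were called, with 27.8% lower and 25.5% higher at DAP20. Of the 77 members that passed the filter through later libraries, 64 were lower and 1 was higher. The median log2 fold change of DAP20 over DAP10 was -3.33 over the 123 members, against -0.03 over all genes. With genes at 0 set to the bound given by 3 counts, and 17 members at or under 3 counts at both stages left out, the members' median was -3.16. Under library totals the median of all genes was -0.42, and 84 members were called in either direction, 83 of them lower. In that setting 15206 of all 28749 genes were called in either direction, and the number lower was not counted.

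Falls called in this step ranged from partial loss to no detectable count. The largest by the fitted value were those of Lus10021082.g.BGIv1.0 and Lus10011997.g.BGIv1.0. Lus10021082.g.BGIv1.0 had no count in either DAP20 library, against 10.7 and 15.4 CPM at DAP10, at least 182-fold lower (edgeR FDR = 0.000123). Lus10011997.g.BGIv1.0 had no count at DAP20, against 7.13 and 8.88 CPM at DAP10, at least 111-fold lower (edgeR FDR = 0.000136). Neither gene had a count at DAP30. The bound for Lus10021082.g.BGIv1.0 was 84.9 without DAP20 replicate 1 and 96.9 without replicate 2. That for Lus10011997.g.BGIv1.0 was 52.0 and 59.3 in the same order. Such bounds drop by construction, because 3 counts then rest on less depth. Of the 12 most counted members, 10 were lower at DAP20, with log2 fold changes from -8.32 ± 0.67 for Lus10002964.g.BGIv1.0 to -2.53 ± 0.38 for Lus10035234.g.BGIv1.0 (SE, edgeR FDR = 9.52e-05 and 0.00129). The exceptions were Lus10033784.g.BGIv1.0, at -0.09 ± 0.37 (SE, edgeR FDR = 0.849), and Lus10002618.g.BGIv1.0, at -2.91 ± 1.18 (SE, edgeR FDR = 0.0786) on few counts. Lus10002618.g.BGIv1.0 passed the filter only through its DAP5 libraries, so it was not tested when only the later libraries were fitted. For Lus10002964.g.BGIv1.0 the log2 fold change was -8.91 without DAP10 replicate 1 and -7.34 without DAP10 replicate 2. For Lus10002618.g.BGIv1.0 it was -3.82 without DAP10 replicate 1 and -0.64 without DAP10 replicate 2.

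Only Lus10040327.g.BGIv1.0 was called higher at DAP20 than at DAP10. It had 329 and 233 CPM at DAP5, 3.63 and 5.17 CPM at DAP10, 20.4 and 9.23 CPM at DAP20, and 1.04 and 1.27 CPM at DAP30. Both DAP20 libraries exceeded both of DAP10 and both of DAP30. The log2 fold change of DAP20 over DAP10 was 2.14 ± 0.40 (SE, edgeR FDR = 0.00355), and it was 1.48 without DAP20 replicate 1 and 2.59 without DAP20 replicate 2. At DAP30 it was lower than at DAP20, by a log2 value of -3.59 ± 0.45 (SE, edgeR FDR = 0.00187), or -2.92 without DAP20 replicate 1. This gene had a second maximum at DAP20, which the rule itself held to at most 10% of the lower DAP5 library.

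At DAP30 11 members were lower than at DAP20, 4 were higher and 108 were not called. Of all genes tested, 32.5% were called, with 17.4% lower and 15.1% higher at DAP30. All 15 called members were among the 77 that passed the filter through later libraries, and the other 46 could hardly be called here. Of the 123 members, 63 had 3 counts or fewer at both stages, where a difference was not detectable at this depth. Over the 60 others, with genes at 0 at their bound, the median log2 fold change was -0.87, against -0.04 over all genes. Fewer members were called without DAP30 replicate 1 or without DAP30 replicate 2. The number called among all genes tested fell as well in both cases.

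All 4 rises were to low levels, and Lus10024378.g.BGIv1.0 and Lus10031348.g.BGIv1.0 were added to the named genes after their values were seen. Lus10024378.g.BGIv1.0 had 9.29 and 15.8 CPM at DAP30, against 3.96 and 2.26 CPM at DAP20, and the log2 fold change was 2.11 ± 0.34 (SE, edgeR FDR = 0.00425). Its DAP10 libraries were at 12.9 and 14.7 CPM, within the range of DAP30. Lus10031348.g.BGIv1.0 had 5.38 and 3.20 CPM at DAP30, against 1.44 and 2.0 CPM at DAP20, and the log2 fold change was 1.42 ± 0.29 (SE, edgeR FDR = 0.00986). Its call was lost without DAP30 replicate 1. Lus10013000.g.BGIv1.0 had 37 counts over both DAP30 libraries, against 8 over both DAP20 libraries, a ratio of 5.11 by library totals (exact 95% binomial interval from 2.34 to 12.7, edgeR FDR = 0.013). Its call was lost without DAP20 replicate 2 or DAP30 replicate 1. Lus10003106.g.BGIv1.0 had 5 counts over both DAP30 libraries and none at DAP20, with a lower exact 95% binomial limit of 1.01 for the ratio by library totals (edgeR FDR = 0.0267). Its call was lost without either DAP20 library, without DAP30 replicate 2 and with only the later libraries in the fit.

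The largest falls from DAP20 to DAP30 rested on uneven DAP20 replicates. Lus10031200.g.BGIv1.0 had no count at DAP30, against 8.05 and 0.923 CPM at DAP20, at least 56.5-fold lower (edgeR FDR = 0.0316). The bound was 11.6 without DAP20 replicate 1 and 101 without DAP20 replicate 2, and the call was lost without DAP20 replicate 1 or either DAP30 library. Its DAP10 libraries were at 3.63 and 14.9 CPM, so it differed widely between replicates at both stages. Lus10032585.g.BGIv1.0 had no count at DAP30, against 1.44 and 0.256 CPM at DAP20, at least 10.7-fold lower (edgeR FDR = 0.0197). The bound was 3.23 without DAP20 replicate 1 and 18.1 without DAP20 replicate 2, and the call was lost without either DAP30 library.

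**Figure D4:**
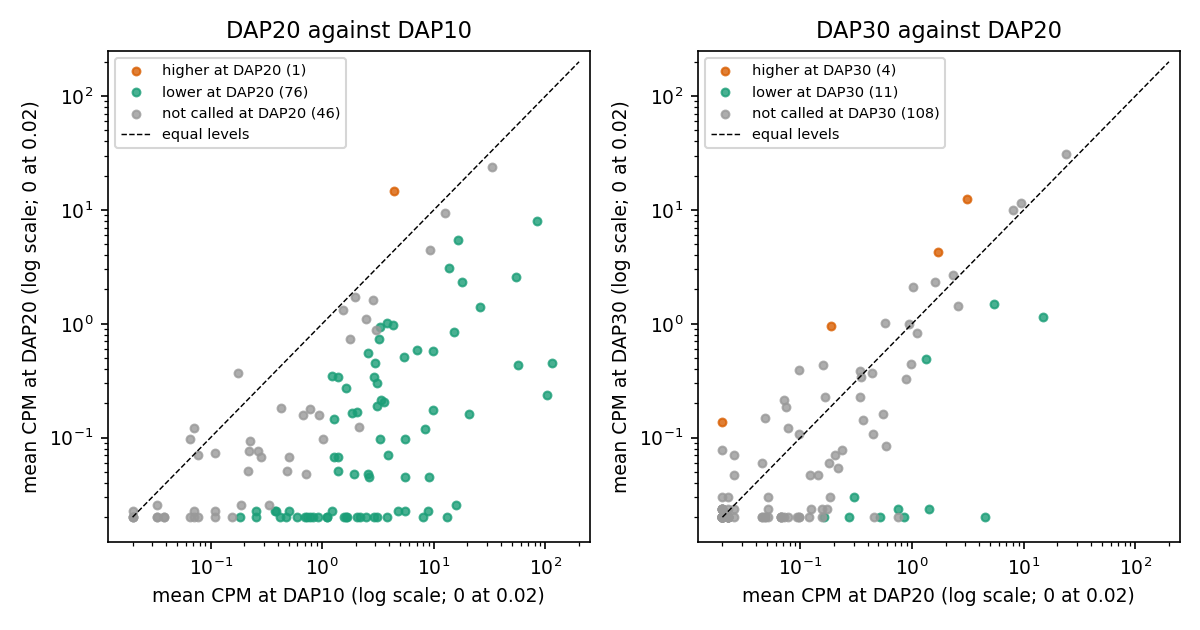
Mean CPM of each member at DAP20 against DAP10 (left) and at DAP30 against DAP20 (right), on log scales with 0 drawn at 0.02, coloured by the edgeR call at an FDR below 0.05. On the left 76 members are called lower, most of them far under the dashed line of equal levels, while on the right 108 of 123 are not called.

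Over the whole later span 88 members were lower at DAP30 than at DAP10, 1 was higher and 34 were not called, beside 36.7% lower and 29.3% higher, or 65.9% in all, among the genes tested. Of the 77 members that passed the filter through later libraries, 70 were lower and 1 was higher. The median log2 fold change was -4.99 over the members, or -3.48 with genes at their bound and 16 members at or under 3 counts at both stages left out, against -0.21 over all genes. The largest falls were to no count at DAP30. Lus10039701.g.BGIv1.0 was at least 1432-fold lower than at DAP10 (edgeR FDR = 0.00012), or at least 628-fold without DAP30 replicate 1 and 804-fold without DAP30 replicate 2. Lus10032585.g.BGIv1.0, at 15.7 and 14.6 CPM at DAP10, was at least 191-fold lower (edgeR FDR = 0.000238), or at least 83.7-fold without DAP30 replicate 1 and 107-fold without DAP30 replicate 2.

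The 1 member higher at DAP30 than at DAP10 was Lus10031348.g.BGIv1.0. It had 73.2 and 70.5 CPM at DAP5, 1.78 and 2.16 CPM at DAP10, 1.44 and 2.0 CPM at DAP20, and 5.38 and 3.20 CPM at DAP30. Its log2 fold change of DAP30 over DAP10 was 1.62 ± 0.30 (SE, edgeR FDR = 0.00213), and 1.13 under library totals. The other 7 members whose highest later mean was not at DAP10 included Lus10040327.g.BGIv1.0. The remaining 6, singled out after their values were seen, were Lus10016064.g.BGIv1.0, Lus10031008.g.BGIv1.0, Lus10030912.g.BGIv1.0, Lus10024359.g.BGIv1.0, Lus10016484.g.BGIv1.0 and Lus10037126.g.BGIv1.0. None of these 6 passed 0.462 CPM in any later library, so their order among later stages rested on a few counts.

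A small group was present throughout. Of the 123 members, 10 had at least 1 CPM in all 6 later libraries, and these were singled out after their values were seen. Besides Lus10042555.g.BGIv1.0, Lus10033784.g.BGIv1.0, Lus10035234.g.BGIv1.0, Lus10022374.g.BGIv1.0, Lus10040327.g.BGIv1.0, Lus10024378.g.BGIv1.0 and Lus10031348.g.BGIv1.0, they were Lus10008612.g.BGIv1.0, Lus10020979.g.BGIv1.0 and Lus10017306.g.BGIv1.0. Lus10008612.g.BGIv1.0 was the flattest, at 180 and 160 CPM at DAP5, 11.6 and 13.8 CPM at DAP10, 7.73 and 11.1 CPM at DAP20, and 11.08 and 12.01 CPM at DAP30. Lus10020979.g.BGIv1.0 stepped down at each stage, at 272 and 201 CPM at DAP5, 17.6 and 15.5 CPM at DAP10, 6.16 and 4.62 CPM at DAP20, and 1.08 and 1.87 CPM at DAP30. The 3 members with the highest DAP30 means held 60.9% of the members' summed CPM at that stage, so what was left of the group late in development came from few genes.

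The replicates of a stage differed in the members' levels, and the shares that follow are descriptions with no test. At DAP5 80 of the 123 members (65.0%) were higher in replicate 1, compared with 56.2% of the 1133 genes with a margin of 2 to 10 times and 42.0% of the 9313 with a smaller margin. The median ratio of replicate 2 to replicate 1 was 0.876 in the members, 0.966 in the genes with a margin of 2 to 10 times and 1.04 in those with a smaller margin. At DAP10 the direction was the opposite: of the 72 members with at least 30 counts at that stage, 61 (84.7%) were higher in replicate 2, compared with 61.9% of 1130 and 51.2% of 9312 genes in the other sets. The median ratio at DAP10 was 1.31 in the members, 1.04 in the genes with a margin of 2 to 10 times and 1.004 in those with a smaller margin. With 2 libraries per stage these differences between libraries have no replicate check, and their part in the members' DAP10 levels was not tested.

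**Figure D5:**
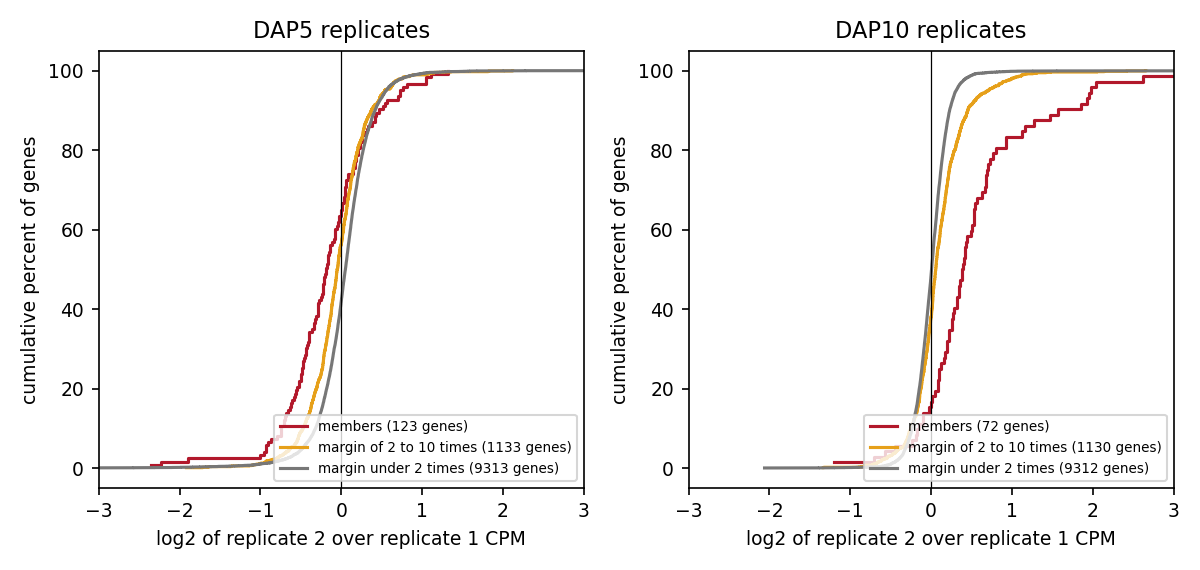
Cumulative percent of genes by log2 of the replicate 2 over replicate 1 CPM at DAP5 (left) and DAP10 (right), for members, Lus genes with a margin of 2 to 10 times and Lus genes with a smaller margin, all at 20 CPM or more in each DAP5 library and with 30 counts at the stage shown. The members' curve lies left of the others over most of its range at DAP5, with a median ratio of 0.876, and right of them at DAP10, with a median ratio of 1.31.

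Wide replicate differences at DAP5 came from few members. At DAP5 92 members agreed within 1.5 times between the replicates, and 8 were over 2 times apart. Lus10023140.g.BGIv1.0 had 254 and 49.7 CPM, Lus10023143.g.BGIv1.0 had 249.8 and 53.5 CPM, and Lus10011499.g.BGIv1.0 had 193 and 51.9 CPM in DAP5 replicates 1 and 2. Each of these 3 genes had at most 0.858 CPM in any later library. Low later levels were common, since only 71 and 76 of the 123 members reached 1 CPM in DAP10 replicates 1 and 2. At DAP5 the 3 genes were alike in level and in direction. Lus10029105.g.BGIv1.0 went the other way, with 30.8 and 76.8 CPM. At DAP10 the widest ratio, 63.2, was that of Lus10015218.g.BGIv1.0, singled out after its values were seen, with 0.066 and 4.17 CPM in replicates 1 and 2. Reads shared between near-identical copies could not be recognised without sequence, so genes with alike levels may not be independent.

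Some members had consecutive ID numbers. There were 6 such runs, 5 of 2 IDs and 1 of 3, with 13 members in all, and whether consecutive numbers mark neighbouring genes was not checked here. The run of 3 was Lus10030578.g.BGIv1.0, Lus10030579.g.BGIv1.0 and Lus10030580.g.BGIv1.0, with lengths of 390, 504 and 344 bases. Their DAP5 levels were 58.9 and 104 CPM, 49.1 and 46.5 CPM, and 27.1 and 46.0 CPM, and none passed 0.926 CPM in a later library. All 3 were short, and on the RPKM scale they were at 209, 94.9 and 106 at DAP5, above the members' median of 70.4. The median of the 22 members under 700 bases was higher, at 126 RPKM. In another run Lus10006665.g.BGIv1.0 had 484 and 265 CPM at DAP5 and its neighbour by number Lus10006666.g.BGIv1.0 had 1756 and 920.1 CPM, with replicate 2 at 0.548 and 0.524 of replicate 1. Not all runs were alike in this way. Lus10029104.g.BGIv1.0 was higher in DAP5 replicate 1, whereas Lus10029105.g.BGIv1.0 was higher in replicate 2. Lus10027353.g.BGIv1.0 and Lus10027354.g.BGIv1.0 averaged 647 and 34.6 CPM at DAP5. Of 137 non-members with an ID number next to a member and at least 1 CPM in a library, 26 (19.0%) were at least 2 times higher in the lower DAP5 library than in every later one, compared with 10.6% of 27028 Lus genes at that level. The mean level was highest at DAP5 in 76 (55.5%) of the 137, close to the 51.3% of those 27028 genes, and no test was made of either share.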

How the data were processed

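Per the labels' protocols, total seed RNA came from a TRIzol extraction and was sequenced from NEBNext Ultra libraries. The authors deposited 1 table of raw read counts per gene and library, not normalized, with a gene length in bases, a value the header names without saying how it was measured. Aligner, counter, genome build and strand setting: not given in the sources used here. Columns were matched to samples by the library code in the description.

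From the deposited counts, CPM on library totals chose and describes the members, and RPKM divides it by length. Tests used edgeR 4.0.16 in R 4.3.3 on the counts: filterByExpr (min.count 10, min.total.count 15), TMM, stage as the only term, glmQLFTest. The SE is the absolute log2 fold change over the square root of F. DESeq2 1.42.0 was an alternative. Where a stage had no count, 3 counts over its libraries set a lower bound of the fold. Intervals and floors cover counting error only.

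Members, lists and tests were chosen with earlier results of these data known. Named genes are the 12 members with the highest DAP5 CPM, the 6 highest by RPKM, those with no later count, the 3 nearest either side of the margin, the 4 with the widest DAP5 replicate ratio, up to 2 rises and 2 falls per later comparison, and ID runs of 3 or more. Lists by words in gene names could not be used, since no names come with the IDs. Same-numbered replicates were not treated as pairs: correlations of their deviations between stages ran from -0.0856 to 0.188.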

Additional observations from a re-analysis of the deposited data

Results flagged for a closer look

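The 2212 gene models added by the authors, marked newGene in their ID, could not be members. They were not removed before the edgeR filter and tests, so values over all genes tested include those that passed. One of them met the same margins: Linumusitatissimum_newGene_4137, of 574 bases, averaged 30.02 CPM at DAP5, with 24.98 and 35.1 CPM in the replicates, 0.858 and 1.16 CPM at DAP10, and no count at DAP20 or DAP30. The margins that picked it already put its DAP5 level above what a count of 0 allows, so its values are a description with no test.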

How the results depend on the processing

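The number of members followed the thresholds: 254 genes passed with a margin of 5 times, 78 with a margin of 20 times and 76 with a minimum of 50 CPM. It was 165 with a minimum of 10 CPM, and with TMM sizes in place of library totals it was 86, all of them members, since TMM lowers DAP5 levels relative to later ones. Without each library in turn it ran from 123 to 179. It could not fall below 123, since leaving out a library only relaxes the rule. Members called ranged, without each library in turn, from 65 to 76 for DAP20 against DAP10, from 4 to 17 for DAP30 against DAP20 and from 68 to 89 for DAP30 against DAP10. A stage left with 1 library was assumed to vary like the others. In each comparison the lowest count of members came from a fit in which fewer of all genes were called too. For DAP30 against DAP20 the lowest counts of members came without a DAP30 library. Whether the members varied more between these fits than other genes was not tested, and neither was the cause. DESeq2 called 79, 17 and 90 members in these 3 comparisons, beside 15102, 10036 and 18746 of all 28749 genes. With only the 6 later libraries 56, 11 and 65 were called, of 77 tested, beside 14568, 8555 and 18082 of all 27138 genes. Of the named genes 1 changed sign, the uncalled Lus10033784.g.BGIv1.0 for DAP20 against DAP10, with log2 values from -0.78 without DAP20 replicate 1 to 0.35 without DAP20 replicate 2, called in neither case. Lus10002618.g.BGIv1.0 was called for DAP20 against DAP10 under library totals, having passed the filter only through its DAP5 libraries. Named genes lost their call in the comparison of DAP30 with DAP20 alone, with the FDR reaching 0.0574 for Lus10031348.g.BGIv1.0, 0.113 for Lus10003106.g.BGIv1.0, 0.0824 for Lus10013000.g.BGIv1.0, 0.117 for Lus10031200.g.BGIv1.0 and 0.0872 for Lus10032585.g.BGIv1.0. Adding the replicate number as a block gave 76, 13 and 89 members called, beside 14779, 8653 and 18589 of all 28749 genes. Nothing in the labels says that equal numbers mark a pair.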
